A study of Mus musculus with 4 samples.

Results

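The ryanodine receptor calcium release complex of muscle was followed through 10 genes: the release channels Ryr1 and Ryr2, the calsequestrins Casq1 and Casq2, triadin (Trdn), the gene of junctin (Asph), the junctophilins Jph1 and Jph2, the histidine rich calcium binding protein (Hrc) and the channel-bound immunophilin Fkbp1b. They were taken by name from 21938 protein-coding genes of GENCODE release M21 on mouse build mm10, and every H3K27ac peak inside a gene or up to 50 kb to either side of it was counted as lying in its window. The windows held 139 of the 63061 peaks of the replicated list, which the authors derived from the alignments of both replicates. H3K27ac, acetylation of histone H3 at lysine 27, is a mark of active promoters and enhancers, and was read by ChIP-seq from heart tissue of female B6CASTF1/J mice 2 months old, a cross between C57BL/6J and CAST/EiJ. All 4 libraries belong to a single group, 2 biological replicates that are each a pool of 2 hearts, with 2 technical replicates per pool. One donor identifier is shared by both pools in the labels, so a difference between them may be technical. No treatment or second tissue was included, so heart and skeletal forms were compared as genes within heart chromatin.

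In muscle, an action potential enters the cell along transverse tubules and opens ryanodine receptors, which let calcium out of the sarcoplasmic reticulum to start contraction. Calsequestrin stores calcium in the lumen of the reticulum, triadin and junctin anchor it to the channel, junctophilins hold the reticulum against the tubule, and Fkbp1b binds the channel on its cytosolic side. Heart muscle is known to rely on Ryr2, Casq2 and Jph2, and skeletal muscle on Ryr1, Casq1 and Jph1. Heart form and skeletal form are used here as labels for these genes. They do not mean that a gene is unused in the other muscle, which was not tested. Trdn, Asph and Hrc serve both muscles, and Fkbp1b is the immunophilin that the heart channel binds most tightly, so it was placed with the heart forms.

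Peaks that came within 1 kb of any annotated start site of a gene were called promoter peaks of that gene. In the replicated list 9 of the 10 members had one, where 56.8% of all protein-coding genes did. All 4 heart forms and all 3 forms of both muscles were among them, and so were the skeletal forms Casq1 and Jph1. Ryr1 was the member without one, at none of its 7 annotated start sites. The count was also 9 in the list of replicate 1 (background 55.2%), in that of replicate 2 (57.9%) and in the pseudoreplicated list made from both replicates (57.0%), and Ryr1 was the missing member each time. At the 5′ end of the gene alone 8 members had a peak, against 53.3% of protein-coding genes, with Trdn the further one missing.

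Acetylated length, the length covered by peaks in the window, separated the members over a wide range (plot of acetylated length in the 4 lists). Jph2 had the most, 42.1 kb, followed by Ryr2 with 28.1 kb, and Fkbp1b the least, 2.85 kb. The order below Jph2 depended on the window. With 100 kb on each side Ryr1 (52.3 kb) came next to Jph2 (52.5 kb) and Jph1 had the least (7.02 kb, against 8.63 kb for Fkbp1b). In the gene body alone Trdn (18.1 kb) followed Jph2 (37.5 kb), with 10 kb on each side Asph (18.2 kb) followed Jph2 (40.1 kb), and by peaks closest to the member's own start Jph2 (29.3 kb) and Ryr2 (28.1 kb) were nearly level; Ryr1 had the least in each of these 3 counts, 0.319 to 0.404 kb. The median of the 10 members was 13.5 kb and that of all protein-coding genes 4.32 kb. A long gene has a long window, so each member was also ranked within its class when protein-coding genes were split into 10 equal classes of length. There Jph2 stood at percentile 98.4, Ryr2 at 89.2, Casq1 at 84.3, Asph at 78.6, Trdn at 78.4, Casq2 at 72.7, Ryr1 at 70.2, Hrc at 68.6, Jph1 at 54.2 and Fkbp1b at 41.5.

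**Figure D1:**
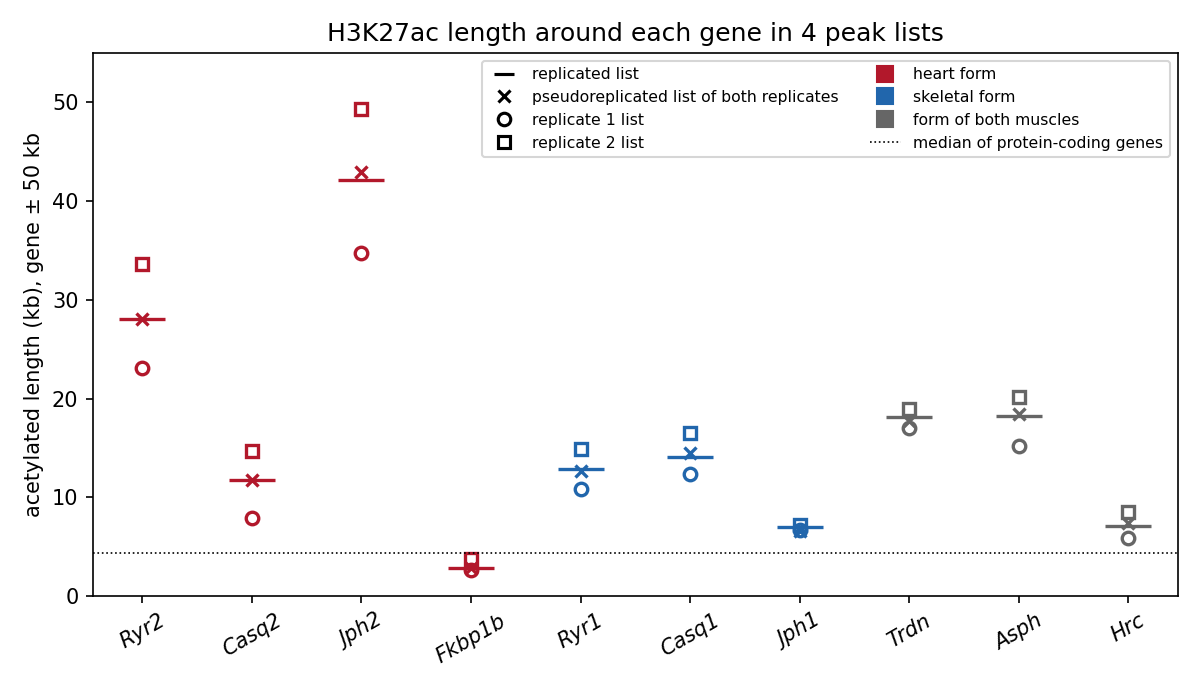
Acetylated length in kb over each gene and 50 kb to either side (vertical axis) for the 10 members (horizontal axis); horizontal ticks are the replicated list, crosses the pseudoreplicated list of both replicates, circles the replicate 1 list and squares the replicate 2 list, and the dotted line is the median of protein-coding genes in the replicated list. Jph2 lies between 34.7 and 49.3 kb in the 4 lists, above all other members, and Fkbp1b between 2.63 and 3.76 kb, below them.

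The 2 single-replicate lists gave a spread for these lengths. Each member had more acetylated length in replicate 2 than in replicate 1, by a ratio from 1.07 for Jph1 to 1.86 for Casq2. This shift was not particular to the members. The replicate 2 list held more peaks (61333 against 55831), and each of the 28 further pathway genes described below was also longer in it. The ranges that follow include this shared shift. Jph2 covered 34.7 kb in replicate 1 and 49.3 kb in replicate 2 (mean 42.0 ± 10.3 kb, SD, n = 2 lists). Ryr2 covered 23.1 and 33.6 kb (28.4 ± 7.42 kb), so the ranges of these 2 members did not overlap. Trdn (17.0 and 18.9 kb), Asph (15.2 and 20.2 kb), Casq1 (12.4 and 16.5 kb), Casq2 (7.93 and 14.7 kb) and Ryr1 (10.8 and 14.9 kb) formed a middle group, in which Asph overlapped Trdn and Casq1, the ranges of Casq1, Casq2 and Ryr1 overlapped one another, and Trdn lay above those 3. Hrc (5.91 and 8.53 kb) and Jph1 (6.74 and 7.20 kb) overlapped each other, Hrc also overlapped Casq2, and Fkbp1b (2.63 and 3.76 kb) lay below all of them.

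The ryanodine receptors are the channels themselves, and the heart form and the skeletal form differed most plainly at their start sites. Ryr2 (ENSMUSG00000021313.16, chr13:11553102-12106945, minus strand) had 29 peaks in its window of 654 kb and Ryr1 (ENSMUSG00000030592.18, chr7:29003344-29125179, minus strand) had 14 in 222 kb. A partner in both single-replicate lists was found for 18 of the 29 and for 10 of the 14. At Ryr2, 2 of the peaks had a q above 0.05. All 28.1 kb of acetylated length at Ryr2 had a Ryr2 start site as the closest coding start site, and no other protein-coding gene starts in its window. At Ryr1 that share was 0.319 kb of 12.9 kb, a single peak of fold 3.09 in an intron 81.9 kb into the gene, which had a partner in neither single-replicate list. The fold is the authors' value for the peak, read as enrichment over control.

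The bases before both start sites are given here because one promoter lay beside strong peaks and the other beside none. They are the 250 bases before the RefSeq start on GRCm38.p6, chr13:12106946-12107195 for Ryr2 and chr7:29125152-29125401 for Ryr1, both read 5′ to 3′ on the minus strand, with a T-box match (AGGTGT or its reverse complement) in capitals.
Ryr2: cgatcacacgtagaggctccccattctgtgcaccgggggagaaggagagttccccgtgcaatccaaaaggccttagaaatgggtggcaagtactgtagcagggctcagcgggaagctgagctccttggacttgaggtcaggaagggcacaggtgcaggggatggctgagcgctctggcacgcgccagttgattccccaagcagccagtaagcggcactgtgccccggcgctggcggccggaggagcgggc
Ryr1: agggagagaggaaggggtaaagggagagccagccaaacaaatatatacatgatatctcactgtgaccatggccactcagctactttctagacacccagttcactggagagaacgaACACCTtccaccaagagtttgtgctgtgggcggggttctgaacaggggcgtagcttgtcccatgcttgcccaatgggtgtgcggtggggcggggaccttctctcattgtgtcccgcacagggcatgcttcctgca
With the first 50 transcribed bases added, GC content was 65.3% for Ryr2 and 56.7% for Ryr1, and the ratio of observed to expected CpG was 0.566 and 0.374, where the median of 32851 RefSeq promoters was 52.7% and 0.384. The Ryr1 promoter held 1 T-box match, 135 bases before the start, and the Ryr2 promoter none of the 8 consensus sequences that were searched.

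Around its start Ryr2 carried a peak of 1.05 kb with fold 15.8 whose summit lay 0.487 kb inside the gene, and next to it one of 1.04 kb with fold 13.0. The 5′ end itself fell into a gap, 144 bp from the peak inside the gene and 121 bp from a weak peak of 0.207 kb before it. That weak peak was in neither single-replicate list. The 5′ end lay outside the peaks in both single-replicate lists as well, each with 1 peak within 1 kb of it, 1.04 kb wide in replicate 1 and 3.90 kb wide in replicate 2.

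Upstream of Ryr2 stood a cluster of 3 peaks that covered 10.3 kb. The middle one, with its summit 22.1 kb before the 5′ end, was 6.58 kb wide with fold 17.0, the highest fold in the window. The others lay 18.5 kb (2.44 kb wide, fold 8.63) and 27.1 kb (1.26 kb wide, fold 13.3) before it, and all 3 had partners in both replicates. In the replicated list the widest and strongest peak of Ryr2 lay outside the gene, with fold 17.0 against 15.8 for the strongest peak at the start. The order of these peaks within each single-replicate list was not compared. Within the gene, 16 of the 20 intron peaks lay beyond 10 kb and had folds no higher than 4.08, the last one 243 kb from the 5′ end, and the remaining 311 kb of the gene held no peak. The 300 bases around the summit of the middle upstream peak, chr13:12128871-12129170 on mm10, are given on the strand of Ryr2. They were chosen because this was the strongest peak of the locus in the replicated list, and hold none of the 8 consensus sequences.
Ryr2 upstream peak: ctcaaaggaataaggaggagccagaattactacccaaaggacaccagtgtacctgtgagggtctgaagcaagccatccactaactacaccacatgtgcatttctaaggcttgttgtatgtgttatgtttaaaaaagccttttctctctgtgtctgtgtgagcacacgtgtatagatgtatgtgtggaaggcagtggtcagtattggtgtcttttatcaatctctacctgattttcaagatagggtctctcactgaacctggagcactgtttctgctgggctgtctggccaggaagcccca

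Most of the acetylated length in the Ryr1 window lay at start sites of other genes, 8.52 kb of 12.9 kb. Of its 14 peaks, 7 lay at start sites of other coding genes: Actn4, the gene of a widely expressed alpha-actinin (5.42 kb wide, fold 13.2), the translation factor gene Eif3k and the kinase gene Map4k1 (fold 13.8), Fam98c (fold 17.4), Rasgrp4, and the neighbours Spred3 and Ggn. A further 6 peaks lay past the 3′ end of Ryr1, closest to Actn4 or Eif3k, and which gene these serve was not tested. In the gene body, acetylation covered 0.262% of Ryr1, at percentile 28.3 of its length class, and 2.85% of Ryr2, at percentile 64.7. Ryr2 minus Ryr1 was 15.2 kb in the replicated list, 12.3 kb in replicate 1 and 18.8 kb in replicate 2. The direction depended on the window: with 100 kb on each side the difference was −16.8 kb, and as a share of the window it was −1.53 percentage points, since the Ryr2 window is 654 kb long and that of Ryr1 222 kb.

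**Figure D2:**
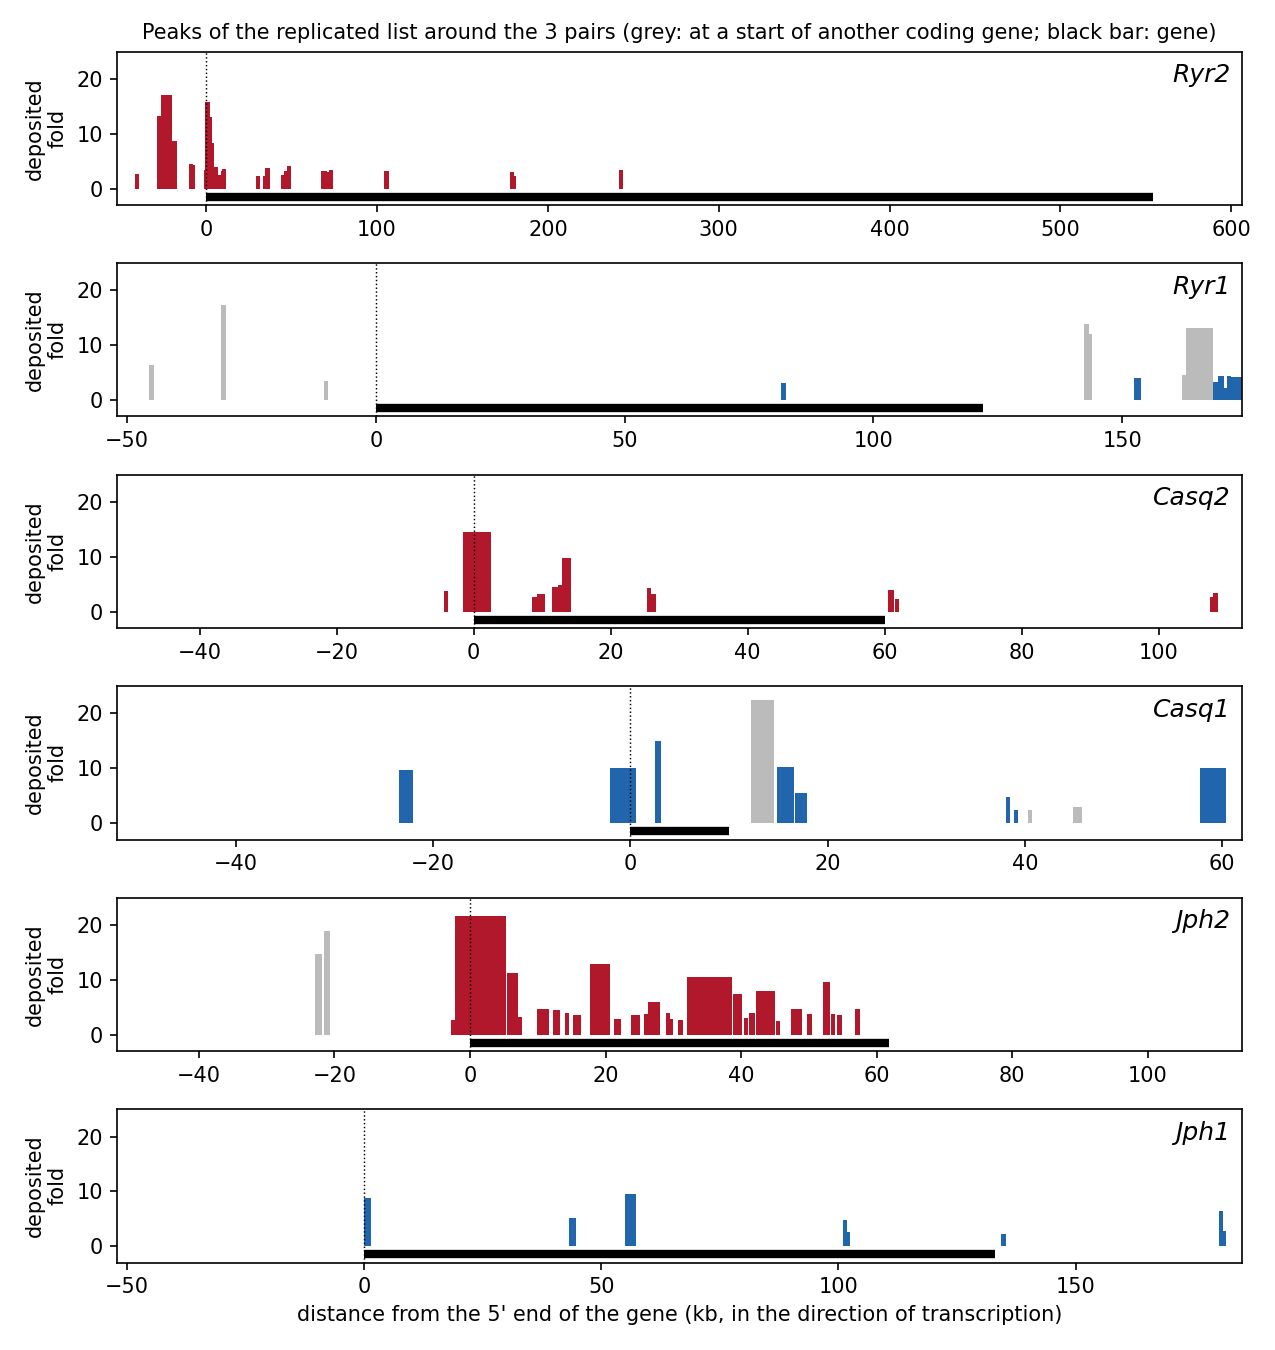
Peaks of the replicated list around the heart forms (red) and skeletal forms (blue) of the 3 pairs; the horizontal axis is distance from the 5′ end of the gene in kb along the direction of transcription, the vertical axis the deposited fold, bars span the peaks (very narrow ones are drawn at a minimum width), grey bars lie at start sites of other coding genes, and black bars are the genes. Within 1 kb of the 5′ end the strongest peaks of Ryr2, Casq2 and Jph2 have folds of 14.5 to 21.7. Casq1 and Jph1 have peaks of fold 10.1 and 8.82 there, and Ryr1 has none. In the Ryr1 window all peaks of fold above 5 are grey.

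Calsequestrin binds calcium in large amounts in the reticulum next to the channel. Here both forms had a promoter peak. The peak of Casq2 (ENSMUSG00000027861.13, chr3:102086415-102146514, plus strand) was 4.08 kb wide with fold 14.5, and that of Casq1 (ENSMUSG00000007122.11, chr1:172209894-172219868, minus strand) was 2.57 kb wide with fold 10.1. The widths were 3.90 and 4.12 kb for Casq2 and 2.09 and 2.67 kb for Casq1 in replicates 1 and 2, so the Casq2 peak was the wider one in each.

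The total lengths ran the other way. Casq2 minus Casq1 was −2.34 kb in the replicated list, −4.45 kb in replicate 1 and −1.76 kb in replicate 2. Within the gene body the difference was 6.40 kb, with 10 kb on each side 2.42 kb, and for peaks whose closest coding start site was the member's own it was 7.74 kb (10.9 kb for Casq2, 3.12 kb for Casq1). Most of the length in the Casq1 window lay near other genes, among them Pea15a, a gene of a death effector domain protein, whose promoter peak had the highest fold of the window (2.37 kb wide, fold 22.4), and Dcaf8.

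Inside the genes, Casq2 had 8 intron peaks, the strongest one 13.4 kb from the 5′ end (1.33 kb wide, fold 9.76). Casq1 had 1, 2.76 kb from its 5′ end, which was narrow (0.550 kb) with fold 14.9, above the fold of its own promoter peak. Both of these had partners in both replicates. Casq2 also had 5 peaks that were found in replicate 2 alone, and its length ratio between replicates was the highest of the members.

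The promoter sequences of the calsequestrin genes are given because the pair differs in composition: the Casq2 promoter was rich in A and T, with 44.7% GC, and the Casq1 promoter had 60.3% GC and a CpG ratio of 0.148. They are the 250 bases before the RefSeq starts, chr3:102086165-102086414 on the plus strand for Casq2 and chr1:172219896-172220145 on the minus strand for Casq1. Capitals mark a MEF2 consensus in Casq2 and the E-box CAGCTG in Casq1.
Casq2: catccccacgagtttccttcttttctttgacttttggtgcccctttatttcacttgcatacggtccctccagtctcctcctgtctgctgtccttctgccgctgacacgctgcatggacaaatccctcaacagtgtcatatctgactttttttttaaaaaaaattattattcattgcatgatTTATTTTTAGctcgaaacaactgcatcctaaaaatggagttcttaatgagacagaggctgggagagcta
Casq1: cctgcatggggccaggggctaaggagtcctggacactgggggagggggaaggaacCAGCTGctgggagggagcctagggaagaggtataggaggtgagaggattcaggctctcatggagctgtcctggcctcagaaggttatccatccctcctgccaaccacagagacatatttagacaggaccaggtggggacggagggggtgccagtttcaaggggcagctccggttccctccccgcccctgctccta
The MEF2 match began 69 bases before the Casq2 start, and 3.19% of all RefSeq promoters held one. The E-box stood 195 bases before the Casq1 start, and 16.3% of all promoters held one. These matches describe letters and not binding.

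Junctophilins tie the reticulum to the surface membrane. Jph2 (ENSMUSG00000017817.11, chr2:163336242-163397993, minus strand), the heart form, had 30 peaks in its window, and Jph1 (ENSMUSG00000042686.5, chr1:16964560-17097889, minus strand) had 8. The Jph2 promoter peak was 7.49 kb wide with fold 21.7, at percentile 99.2 of width and 90.0 of fold among the 18057 peaks at coding promoters, whose medians were 1.08 kb and 9.41. The Jph1 promoter peak was 1.32 kb wide with fold 8.82, and ended 56 bp short of the annotated start site. In the single-replicate lists the Jph2 peak was 3.94 and 9.92 kb wide and the Jph1 peak 1.29 and 1.36 kb.

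Acetylation ran through most of Jph2. Peaks covered 60.8% of its gene body, at percentile 99.8 of its length class, against 4.52% of Jph1, at percentile 73.6. The 25 intron peaks of Jph2 covered 31.2 kb, with a median width of 0.843 kb and folds from 2.43 to 12.8. The strongest lay 18.3 kb from the 5′ end (3.03 kb wide), and the widest 34.2 kb from it (6.61 kb wide, fold 10.6). In Jph1 the strongest intron peak lay 56.3 kb from the 5′ end (2.27 kb wide, fold 9.57).

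Jph2 minus Jph1 was 35.1 kb in the replicated list, 28.0 kb in replicate 1 and 42.1 kb in replicate 2. Some of the Jph2 peaks lie toward its 3′ end, where the closest coding start site is one of Tox2, an HMG-box gene: 11 peaks with 10.8 kb. No promoter peak stood at the Tox2 start sites inside the window, and any outside it were not checked. Which gene these peaks serve was not tested. With peaks counted only where the closest start site was the member's own, the difference was 22.2 kb. The promoter of Oser1, with folds of 18.9 and 14.7 in 2 peaks, stood 21.3 to 21.9 kb before Jph2.

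The start of Jph2 and its strongest intron peak are given as the sequences under the largest acetylated length of the complex. The first is the 250 bases before the RefSeq start, chr2:163397994-163398243, and the second the 300 bases around the summit, chr2:163379566-163379865, both on the minus strand. Capitals mark a nuclear receptor element (TGACCTT, the reverse complement of AAGGTCA) and the E-box CAGCTG.
Jph2 promoter: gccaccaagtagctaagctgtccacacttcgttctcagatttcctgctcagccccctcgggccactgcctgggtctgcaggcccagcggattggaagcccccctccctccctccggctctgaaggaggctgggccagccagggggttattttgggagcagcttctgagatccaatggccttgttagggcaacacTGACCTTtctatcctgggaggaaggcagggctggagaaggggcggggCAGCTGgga
Jph2 intron peak: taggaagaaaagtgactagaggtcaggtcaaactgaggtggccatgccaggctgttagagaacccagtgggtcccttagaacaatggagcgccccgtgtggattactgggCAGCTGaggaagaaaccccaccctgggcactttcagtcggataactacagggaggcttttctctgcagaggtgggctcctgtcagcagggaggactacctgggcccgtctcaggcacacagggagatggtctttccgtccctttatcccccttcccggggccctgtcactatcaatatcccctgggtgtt
The nuclear receptor element began 56 bases and the E-box 9 bases before the start. The nuclear receptor element stood in 4.72% of all RefSeq promoters, and the E-box in 16.3%.

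Triadin and junctin are single-pass proteins of the reticulum membrane that link calsequestrin to the channel. Trdn (ENSMUSG00000019787.9, chr10:33080554-33476709, plus strand) had 10 peaks and 18.1 kb, all within the gene. Its 5′-most annotated start, that of a single transcript, had no peak within 1 kb. The next 5 start sites, 2.93 to 3.01 kb further in, lay inside a peak 3.73 kb wide with fold 14.7. The strongest and widest peak of the gene was neither of these but lay deep in an intron, 176 kb from the 5′ end, with a width of 6.94 kb and a fold of 15.1, and had partners in both replicates. It also lies within 1 kb of an annotated start site of D830005E20Rik, a non-coding RNA, while the closest coding start site is one of Trdn itself. The next strongest intron peaks lay 11.8 kb (1.75 kb wide, fold 6.89) and 64.9 kb (0.762 kb wide, fold 5.40) from the 5′ end. The 300 bases around the summit of the deep intron peak, chr10:33256057-33256356 on the plus strand, are given with a GATA match (AGATAA) and an NKX2 match (CACTTGA) in capitals, at GC content 34.7%.
Trdn intron peak: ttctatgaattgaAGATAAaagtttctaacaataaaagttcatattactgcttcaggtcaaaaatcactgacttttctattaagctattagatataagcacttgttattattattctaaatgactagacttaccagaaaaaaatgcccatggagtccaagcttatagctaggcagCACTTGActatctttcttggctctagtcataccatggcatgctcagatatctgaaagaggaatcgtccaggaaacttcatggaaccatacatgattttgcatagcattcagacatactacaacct

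Asph (ENSMUSG00000028207.18, chr4:9448069-9669344, minus strand) encodes an aspartyl hydroxylase as well as junctin, through alternative starts and splicing. It carried a promoter peak at each of 2 groups of start sites. At the 5′ end, where 8 coding transcripts that reach up to 220 kb begin together, the peak was 1.71 kb wide with fold 11.0. At an internal start 25.6 kb further in, shared by 6 transcripts of which 5 are coding and none runs further than 68.5 kb, the peak was 5.95 kb wide with fold 20.0. The internal peak was at percentile 98.3 of width and 87.1 of fold among peaks at coding promoters, and the 5′ peak at 72.1 and 57.7. It was also the wider one in both replicates, with 5.96 and 8.35 kb against 1.72 and 1.80 kb. Among the other Asph peaks the strongest lay in an intron 16.2 kb from the 5′ end (0.556 kb wide, fold 8.53).

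**Figure D3:**
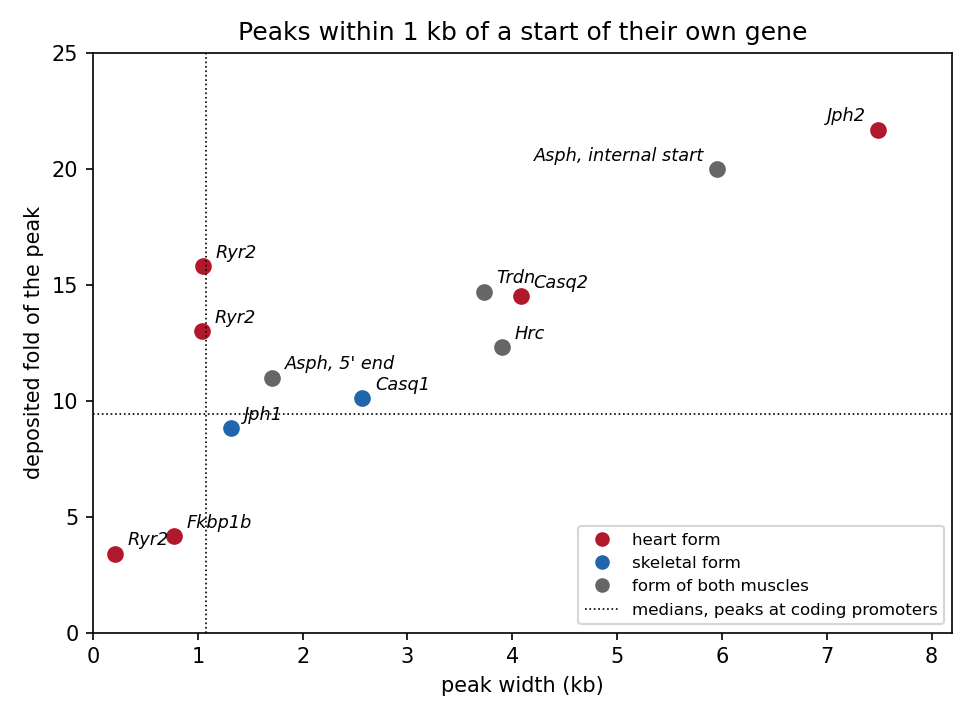
Width in kb (horizontal axis) and deposited fold (vertical axis) of the 12 peaks within 1 kb of a start site of their own gene, coloured by form; dotted lines are the medians of all peaks at coding promoters, 1.08 kb and 9.41. Jph2 and the internal start of Asph lie at the upper right, Fkbp1b and the weak Ryr2 peak at the lower left, and Ryr1 has no point.

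Hrc, which binds calcium in the lumen, and Fkbp1b, which binds the channel from the cytosol, were small genes in crowded windows. Hrc (ENSMUSG00000038239.11, chr7:45335290-45338974, plus strand) had a promoter peak 3.90 kb wide with fold 12.3. This peak also lay within 1 kb of a start site of Trpm4, a cation channel gene, and its summit, 1.66 kb before Hrc, was closer to that start site. The 2 genes cannot be told apart from it. Hrc had 7.12 kb in its window, of which 1.05 kb was closest to its own start, and further peaks lay at the promoters of Ppfia3 and Lin7b.

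Fkbp1b (ENSMUSG00000020635.8, chr12:4833174-4841591, minus strand) had 3 peaks in its window. Its own promoter peak was 0.768 kb wide with fold 4.17, at percentile 17.5 of fold among peaks at coding promoters. The other peaks lay at the promoters of the splicing factor gene Sf3b6 (1.51 kb wide, fold 14.1) and of Wdcp (0.566 kb wide, fold 9.0). Fkbp1a, the broadly expressed relative that binds Ryr1 and is no member, had a promoter peak 2.47 kb wide with fold 23.7 and 7.18 kb in its window. Fkbp1b minus Fkbp1a was −4.33 kb in the replicated list and in replicate 1, and −4.56 kb in replicate 2. Of the 9 members with a promoter peak Fkbp1b had the lowest fold, by the widest promoter peak of each, and it had less acetylated length than its broadly expressed relative in each list.

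By position, the 139 peaks of the 10 windows covered 162.4 kb, 78.4 kb of it in the 77 intron peaks (plot of positions). The 12 peaks at own promoters covered 33.8 kb with a median fold of 12.6, and the 16 at promoters of other coding genes 17.5 kb with a median fold of 10.6. Intron peaks had a median fold of 3.70. A partner in both single-replicate lists was found for 102 of the 139 peaks, 73.4% (95% interval by the exact Clopper-Pearson method 65.2 to 80.5%, for counting of peaks only), where 73.0% of all peaks of the list had one. Of the rest, 22 had a partner in replicate 2 alone, 7 in replicate 1 alone and 8 in neither. At own promoters 11 of 12 had partners in both, and the exception was the weak Ryr2 peak. The peaks of one window share its chromatin and are not replicates.

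**Figure D4:**
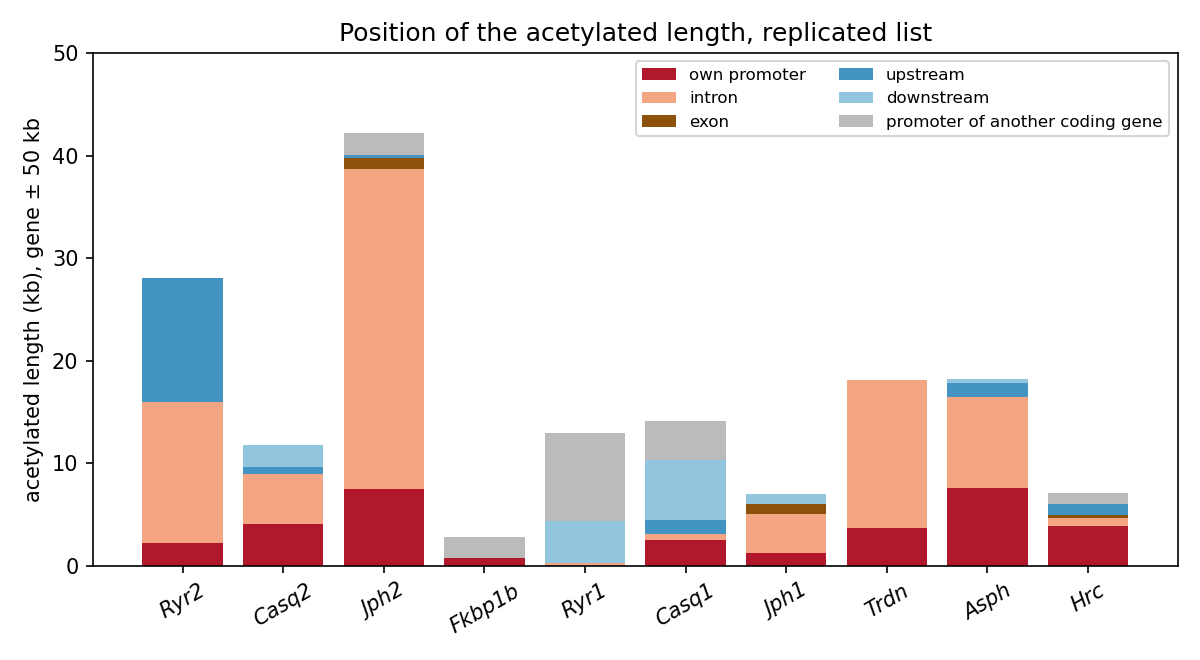
Acetylated length in kb (vertical axis) of each member (horizontal axis) in the replicated list, stacked by where the peak lies: at a start site of the member, in its introns or exons, before or after the gene, or at a start site of another coding gene. Jph2 and Trdn are mostly intronic, Ryr2 has 12.1 kb before the gene, and Ryr1 and Fkbp1b consist largely of peaks at other genes' promoters.

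Among 98 peaks of these windows over 2.5 kb from any start site, the 300 bases around the summit were searched on both strands, beside 37272 such peaks of the whole list. The GATA letters AGATAA stood in 20 of 98, 20.4% against 15.6%, and those of the T-box also in 20, 20.4% against 14.6%. The deep intron peak of Trdn is not among the 98, since it lies within 1 kb of a start site of a non-coding RNA. MEF2 stood in 9.18% against 4.67%, the SRF CArG box in 4.08% against 1.55%, and the nuclear receptor element in 9.18% against 6.93%. The E-box (18.4% against 18.6%), NKX2 (TNAAGTG, 15.3% against 16.6%) and the TEAD consensus (13.3% against 17.2%) stood in a like or smaller share. T-box and NKX2 letters can overlap, and no test was made of these shares. RefSeq promoters were at hand for 7 of the 10 members in 8 entries, with 2 overlapping entries for Jph2. Among the 8 entries the E-box stood in 4 (those of Casq1, Hrc and Jph2), where 16.3% of all RefSeq promoters held one. Both Jph2 entries hold the same E-box. GATA, TEAD, NKX2 and CArG stood in none, where 11.2%, 14.7%, 11.5% and 1.63% of all promoters held them. With so few entries, these counts were not read as a trait of the members.

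The wider pathway was followed through 28 further genes of calcium release and its coupling to the membrane. A promoter peak was found for 22 of them in the replicated list and in each single-replicate list, 78.6% against the background of 56.8%. The longest acetylated lengths were those of Cacna1c, the pore of the heart L-type calcium channel (48.9 kb), Akap6, which anchors kinases at the channel (38.7 kb), Itpr1, an inositol trisphosphate receptor (33.8 kb), and Camk2d, the main heart calmodulin kinase (31.6 kb). The 6 without a promoter peak were Cacna1s, the pore of the skeletal L-type channel (2.59 kb), Stac3 (3.90 kb) and Jsrp1 (15.5 kb), both partners of the skeletal channel, Ryr3, the third ryanodine receptor (2.29 kb), and the junctophilins Jph3 (1.80 kb) and Jph4 (3.14 kb), known from brain. Cacna1s, Jsrp1 and Stac3 had no acetylation inside the gene, so all 15.5 kb counted for Jsrp1 lay outside it.

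**Figure D5:**
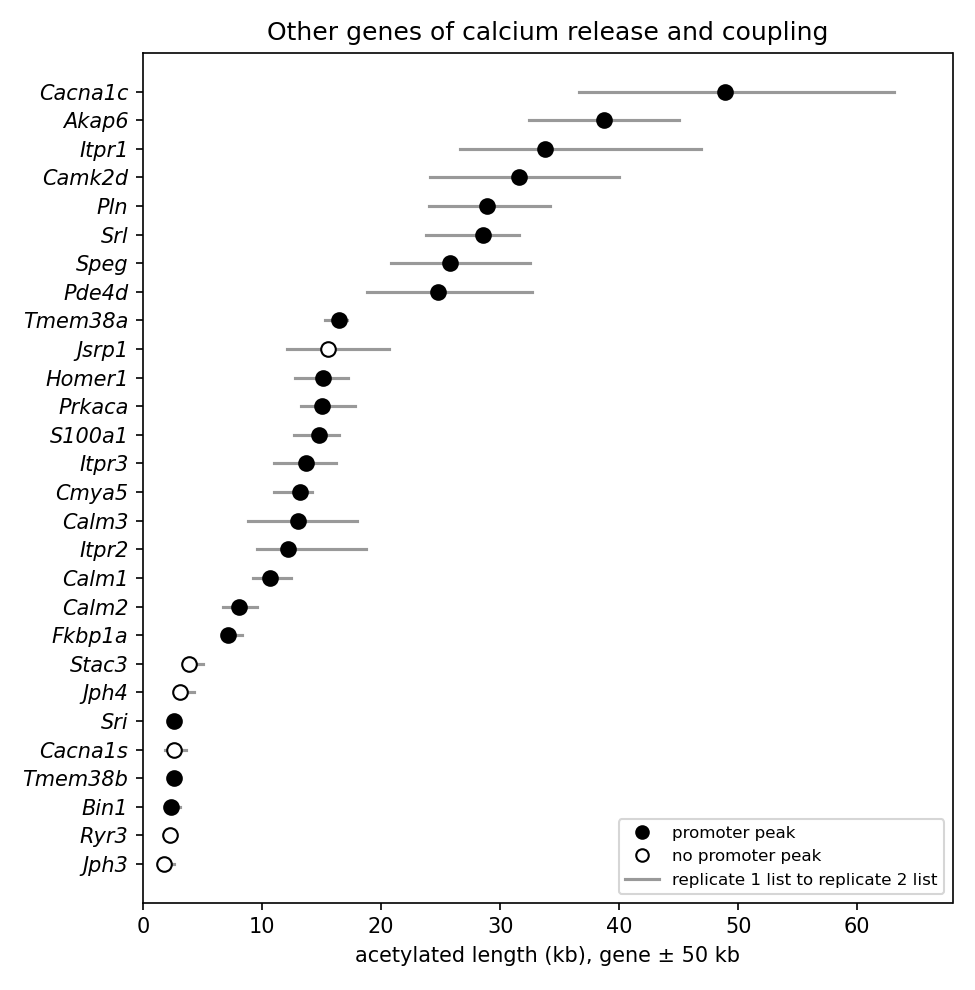
Acetylated length in kb (horizontal axis) of the 28 other genes of calcium release and coupling (vertical axis); points are the replicated list, filled where the gene has a promoter peak, and grey lines join the replicate 1 and replicate 2 lists. Cacna1c, Akap6, Itpr1 and Camk2d have the most, and 5 of the 6 genes with open points lie below 4.32 kb, the median of protein-coding genes. The filled points of Bin1 (2.35 kb), Tmem38b (2.59 kb) and Sri (2.6 kb) lie below it as well.

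The tissue label was checked with marker genes. In the replicated list promoter peaks stood at 7 of 7 cardiomyocyte genes, 4 of 4 endothelial and 4 of 4 fibroblast genes, 2 of 4 smooth muscle genes, and none of 4 macrophage and 4 neuron genes. The replicate 1 list gave the same counts, and the replicate 2 list added Myh11 of smooth muscle (3 of 4) and Ptprc of the macrophage list (1 of 4). Of 10 genes of skeletal muscle fibres 2 had one, Mylpf and Actn3, and Myh1, Myh2, Myh4 and Myod1 had no peak in their windows. Tnni2 (25.5 kb), Tnnt3 (23.1 kb), Atp2a1 (11.2 kb) and Tnnc2 (9.1 kb) also lacked a promoter peak. Their windows did hold acetylation, none of it inside the gene. Whole hearts hold several cell types, so fewer cells of a type and less acetylation per cell cannot be told apart, and the part of each cell type in the peaks of Casq1 and Jph1 was not tested.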

How the data were processed

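H3K27ac chromatin immunoprecipitation was sequenced in 4 heart libraries of 1 group. Technical replicates were joined before peaks were called, so replicates were compared through the 2 single-replicate lists (55831 and 61333 peaks). The replicated list (63061 peaks) and the pseudoreplicated list of both replicates (63494) are not independent, since 90.9% of the former's peaks are identical in the latter. Positions are on mm10, per the labels. The deposited lists give for each peak a display score and a summit distance by the authors, a fold (a ratio) by the authors, and −log10 p and −log10 q by the authors; p was not used, and fold and q were used within a list only. The score was not used. Which aligner and caller were used, and how many reads, is not given in the sources used here, so depth is unknown.

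Gene positions came from GENCODE M21 on GRCm38, promoter sequence from RefSeq on GRCm38.p6, and all 63061 peaks lay inside the chromosome lengths. Length covered by peaks, promoter peaks (1 kb), overlap (at least 1 bp) and consensus matches were computed with Python 3.11.15, pandas 2.3.3, numpy 2.4.6 and pysam 0.24.0. Covered length and promoter calls at the 5′ end were tested on simulated peaks, and overlap and consensus matches were not. Consensus sequences were read on both strands, TEAD as GGAATG, MEF2 and the SRF CArG box by their usual degenerate consensus, and the others as spelled beside the results. No test between groups exists in this design. A promoter entry was read for 7 of 10 members, not for Trdn, Asph and Jph1. Named in the text were the members with their promoter peaks, widest peak and strongest other peaks, neighbours with promoter peaks, and pathway genes without a promoter peak or with the 4 longest acetylated lengths. The members, gene lists and consensus sequences were chosen with earlier results of these data known. Alternatives were other lists, windows, a −log10 q of at least 5, start-site definitions and stricter overlap.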

Additional observations from a re-analysis of the deposited data

How the results depend on the processing

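The number of members with a promoter peak was 9 under 6 of 7 alternatives and 8 at the 5′ end alone. Leaving out 1 replicate at a time gave Ryr2 minus Ryr1 12.3 to 18.8 kb, Casq2 minus Casq1 −4.45 to −1.76 kb and Jph2 minus Jph1 28.0 to 42.1 kb. Ryr2 minus Ryr1 (15.2 kb) was 8.73 kb with peaks of −log10 q of at least 5, 27.8 kb with peaks closest to the member's own start, −16.8 kb with 100 kb on each side and −1.53 percentage points as a share of the window. Casq2 minus Casq1 (−2.34 kb) was −4.22 kb with peaks of −log10 q of at least 5, 6.40 kb in the gene body, 2.42 kb with 10 kb on each side, 7.74 kb with peaks closest to the member's own start and −16.6 kb with 100 kb on each side. Jph2 minus Jph1 (35.1 kb) kept its direction and was 45.4 kb with 100 kb on each side and 22.2 kb with peaks closest to the member's own start. Wider or narrower windows take in more or fewer peaks of other genes. At 50% mutual overlap 43.2% of the 139 peaks had partners in both replicates, against 51.0% of all peaks. No paired analysis was possible because the libraries form 1 group. Depth is unknown, so the lack of a peak, as at Ryr1, says only that none was called.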
